A study of Mus musculus with 8 samples.

Results

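Transcripts of antioxidant defence were followed in neutrophils taken from blood (peripheral blood, PB) or marrow (bone marrow, BM), namely Fth1, Prdx5, Txn1 and Gclc, which are 4 of the 10970 genes in the deposited count table. They were picked by name because of their behaviour in these same data, so their levels and fold changes are a description and carry no test, and Sod2, the mitochondrial superoxide dismutase, is set beside them in the same cells. The donors were young adult male C57BL/6J mice injected intraperitoneally with PBS or with lipopolysaccharide (LPS, a bacterial endotoxin) at a priming dose of 0.5 mg/kg. The labels give the PBS samples as 0 h and the LPS samples as 4 h, whereas the methods describe collection 4 h after either injection. Neutrophils were enriched with a negative selection kit, picked singly by mouth pipette and sequenced by SCRB-seq, a method that tags each mRNA molecule near its 3′ end with a unique molecular identifier (UMI). The 8 labelled samples are called batch 7 here, a number that their names do not carry. They comprise 2 each of PBS-primed PB, LPS-primed PB, PBS-primed BM and LPS-primed BM neutrophils, with 711 cells in all. Each sample is taken here as a plate of its own. Batch 6 holds a further 710 cells in 9 numbered sets, taken here as plates, whose names give the group but no sample. The PBS-primed BM sets numbered 31 and 32 hold 45 and 44 cells, against 84 to 95 in the other sets. Whether they are separate plates is not stated. Batch 6 values are shown plate by plate, and its pooled sums entered no test except an alternative fit with batch as a term. Whether the samples of a group came from separate mice is not stated, so the spread between them may be technical.

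Ferritin is a hollow shell that stores iron in a harmless form. Its heavy chain, made from Fth1, oxidises ferrous iron as it enters, and its light chain, made from Ftl1, helps the iron core to form. Peroxiredoxin 5 (Prdx5) reduces hydrogen peroxide, alkyl peroxides and peroxynitrite in mitochondria, peroxisomes and cytosol, and thioredoxin 1 (Txn1) is the small dithiol protein that recharges it and many other proteins with electrons from thioredoxin reductase. Gclc encodes the catalytic subunit of glutamate-cysteine ligase, the rate-limiting enzyme of glutathione synthesis. Sod2 turns superoxide in mitochondria into hydrogen peroxide, the substrate of the peroxidases. Neutrophils make superoxide in quantity during the oxidative burst, and ferritin and Sod2 are both known targets of inflammatory signals in myeloid cells.

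On the mouse build mm9, Fth1 (ENSMUSG00000024661.6) lies on the plus strand of chromosome 19 from 10057193 to 10059582. Prdx5 (ENSMUSG00000024953.9) lies on the minus strand of the same chromosome from 6981187 to 6984596 and overlaps Trmt112 on the other strand, which was at 0.107 to 36.1 CPM on the 17 plates (CPM, UMIs scaled to a plate total of 1000000). Txn1 (ENSMUSG00000028367.5) lies on the minus strand of chromosome 4 from 57956245 to 57969283. Gclc (ENSMUSG00000032350.8) lies on the plus strand of chromosome 9 from 77602342 to 77642292. Because uniquely mapped reads alone were counted, near-identical copies in the genome can lower a count. The last 500 bases of the Ftl1 transcript had 10 other places in mm9 that matched at 90% identity or more over at least 300 bases, the best at 99.4%, and those of Sod2 had 1 that matched at 100%, whereas those of Fth1, Prdx5, Txn1 and Gclc had none. The Ftl1 and Sod2 counts may therefore be low by an unknown factor, which was not measured, and their levels are compared between plates and not with other genes.

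The ferritin chains parted after LPS, so their upstream sequences are shown with that of Sod2. Each stretch is the 250 bases before a transcript start in RefSeq (GRCm38.p6), 5′ to 3′ on the strand of the gene. Capitals mark a match to the NF-kB consensus on either strand.

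Fth1, chr19:9982396-9982645, plus strand: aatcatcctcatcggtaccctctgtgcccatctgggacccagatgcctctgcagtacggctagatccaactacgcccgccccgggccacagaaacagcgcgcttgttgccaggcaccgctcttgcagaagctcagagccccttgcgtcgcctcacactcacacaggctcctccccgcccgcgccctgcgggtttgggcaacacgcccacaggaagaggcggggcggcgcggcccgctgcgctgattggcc

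Ftl1, chr7:45459887-45460136, minus strand: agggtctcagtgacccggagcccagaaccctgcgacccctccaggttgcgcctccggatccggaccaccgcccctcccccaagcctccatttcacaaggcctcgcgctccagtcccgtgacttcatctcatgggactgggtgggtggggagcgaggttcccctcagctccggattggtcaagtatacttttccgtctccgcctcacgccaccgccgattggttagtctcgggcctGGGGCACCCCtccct

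Sod2, chr17:13007589-13007838, plus strand: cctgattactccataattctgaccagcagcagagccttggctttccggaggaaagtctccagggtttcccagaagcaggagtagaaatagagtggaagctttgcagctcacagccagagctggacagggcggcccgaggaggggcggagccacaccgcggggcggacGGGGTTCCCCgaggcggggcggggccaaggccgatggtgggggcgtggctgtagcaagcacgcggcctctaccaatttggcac

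Of all 32851 upstream stretches in the table, 3.90% hold a match to that consensus. The stretch of Sod2 held 1, beginning 83 bases before the start, and that of Ftl1 held 1, beginning 15 bases before it, while those of Fth1, Prdx5 and Txn1 held none. The core of the antioxidant response element, searched as TGACNNNGC on both strands, was in none of the stretches of Fth1, Prdx5, Txn1, Sod2 and Ftl1 and in 10.2% of all. A match or its absence within 250 bases says nothing of binding, and Gclc has no entry in the table.

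Depth ranged from 3240559 to 8361677 UMIs and from 83 to 92 cells per labelled sample, and from 3462146 to 12020616 UMIs per plate of batch 6. The 95 well barcodes recur across plates, and 68 of them were in use on all 8 plates of batch 7. All 10 neutrophil markers were detected, with a summed level of 122980 to 183857 CPM on PBS-primed PB plates and 276947 to 381281 on all others. Of 10 early neutrophil markers 9 were in the table. They summed to 145 to 1021 on PBS-primed PB plates, 14447 to 42555 on LPS-primed PB plates and 43340 to 72878 on BM plates. The granule genes Camp, Ltf and Ngp, with Chil3, made up most of that sum on every plate. Mpo, Elane, Prtn3 and Top2a were at 49.8 CPM or less on every plate. Mki67 differed, at 8.25 to 54.6 CPM on PBS-primed PB, 2.79 to 6.24 on LPS-primed PB and 2.31 to 84.25 on BM plates. Markers of other cells were highest on PBS-primed PB plates, with B cells at 80.1 to 202, T and NK cells at 86.3 to 503 and platelets at 295 to 2827, against at most 96.3, 43.1 and 128 elsewhere. Hepatocyte markers summed to 1517 to 2400 in PBS-primed and 860 to 899 in LPS-primed PB samples of batch 7 and to at most 94.1 on any other plate. Of 10 monocyte markers 7 were in the table. They summed to 522 to 902 on PBS-primed PB plates, 1256 to 2136 on LPS-primed PB plates and 729 to 1327 on BM plates. Ly6c2 and Fcgr4 were higher on every LPS-primed than PBS-primed PB plate, Ly6c2 at 640 to 1370 against 84.8 to 193 CPM. The other markers did not share that rise. Csf1r was at 15.8 to 174 against 67.6 to 293 CPM, and Ccr2 and Cx3cr1 were at 0 on LPS-primed PB plates. The part of these markers in the results was not tested. Values without cells carrying B cell, T and NK cell, erythroid or platelet markers are given below for the ferritin ratio, and none without monocyte or hepatocyte markers. TMM scaling factors of batch 7 were 1.35 and 1.38 for PBS-primed PB, 0.748 and 0.693 for LPS-primed PB and 0.930 to 1.09 for BM. Taken over all genes, the median log2 fold change after LPS in PB was -0.12 under TMM and -1.03 under library size alone, so both scalings are given below for the members. The median ERCC ratio of a cell, which the authors computed from spike-in RNA, was 0.633 and 0.664 in PBS-primed PB, 0.520 and 0.498 in LPS-primed PB and 0.416 to 0.483 in BM samples, and its part in the results was not tested.

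Fth1 was the member with the largest rise in PB neutrophils after LPS. The PBS-primed PB samples held 7777 and 8303 CPM and the LPS-primed ones 35887 and 33264 CPM, group means of 8040 ± 372 and 34576 ± 1855 CPM (SD, n = 2). The groups did not overlap. On the plates of batch 6 it was 9336 and 9758 CPM after PBS and 46798 and 37610 CPM after LPS. In LPS-primed PB neutrophils Fth1 was the third most abundant transcript of the whole table on all 4 plates, with 3.59% and 3.33% of all UMIs in batch 7 and 4.68% and 3.76% in batch 6, against rank 6 to 8 on the PBS-primed PB plates. The log2 fold change was 3.02 (SE 0.14) with TMM scaling and 2.10 with library size alone.

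Marrow neutrophils held less Fth1 and showed no such shift. It was at 3944 and 3101 CPM in PBS-primed and 3986 and 3473 CPM in LPS-primed BM samples, with a log2 fold change of -0.10 (SE 0.13) with TMM and 0.08 with library size alone. In batch 6 the 4 PBS-primed BM plates lay between 2565 and 4080 CPM and the LPS-primed BM plate was at 4331 CPM. PBS-primed PB neutrophils stood above PBS-primed BM neutrophils on every plate of both batches, by a log2 fold change of 0.67 (SE 0.13) with TMM and 1.20 with library size alone. The order of the groups was thus LPS-primed PB, PBS-primed PB and then both BM groups, which overlapped.

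**Figure D1:**
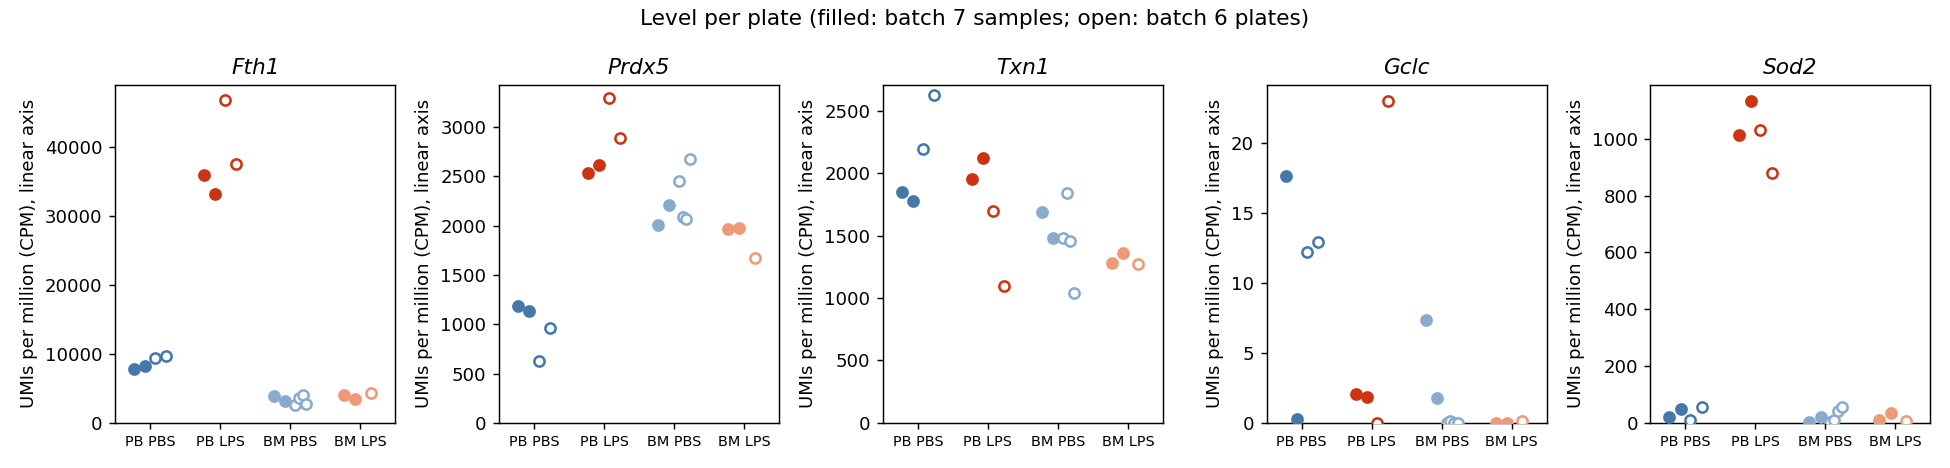
Level of each gene per plate in CPM (linear axes from 0), for PBS- and LPS-primed PB and BM neutrophils. Filled points are the batch 7 samples and open points the batch 6 plates. Fth1 and Sod2 stand apart in LPS-primed PB, Prdx5 is lowest in PBS-primed PB, Txn1 overlaps between groups, and Gclc is at 0 to 23.0 CPM.

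The light chain did not follow the heavy chain. The PBS-primed PB samples held 9942 and 11212 CPM of Ftl1, the highest of any group, and the LPS-primed ones 4302 and 3991 CPM. The log2 fold change was -0.44 (SE 0.14) with TMM and missed the threshold (adjusted p = 0.137, edgeR quasi-likelihood test with Benjamini-Hochberg adjustment). In CPM the fall was larger, from a group mean of 10577 to 4146, so its size followed the scaling. In BM it was 5045 and 4324 CPM after PBS and 3817 and 3752 CPM after LPS. In batch 6 it was again higher on the PBS-primed PB plates, 4973 and 6290 CPM, than on the LPS-primed PB plates, 2932 and 2294 CPM.

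The ratio of Fth1 to Ftl1 UMIs within a plate is free of any scaling between libraries. It was 0.782 and 0.741 in PBS-primed PB neutrophils and 8.34 and 8.34 after LPS. PBS-primed BM samples were at 0.782 and 0.717 and LPS-primed BM samples at 1.04 and 0.926. The plates of batch 6 gave 1.88 and 1.55 in PBS-primed PB, 15.96 and 16.4 in LPS-primed PB, 0.756 to 1.34 in PBS-primed BM and 1.76 on the LPS-primed BM plate. Every LPS-primed PB plate therefore lay above every other plate of both batches. The same ratio in the median cell of a plate was 0.733 and 0.712 after PBS and 5.53 and 7.41 after LPS in PB of batch 7, and 1.85 and 1.29 against 17.2 and 18.8 in batch 6. Cells in which markers of B cells, T and NK cells, erythroid cells and platelets summed to 500 CPM or more were then left out. In batch 7 this kept 71 of 90 and 70 of 86 PBS-primed and 84 of 91 and 83 of 86 LPS-primed PB cells. The ratios were 0.770 and 0.657 in the PBS-primed and 8.54 and 8.60 in the LPS-primed PB samples. Batch 6 kept 35 of 88 and 48 of 84 PBS-primed PB cells, with ratios of 1.81 and 1.47. Its LPS-primed PB plates kept 95 of 95 and 86 of 91 cells, with ratios of 15.96 and 16.6. With every cell thinned to 5000 UMIs the batch 7 ratios in PB were 0.724 and 0.708 after PBS and 6.68 and 6.40 after LPS.

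**Figure D2:**
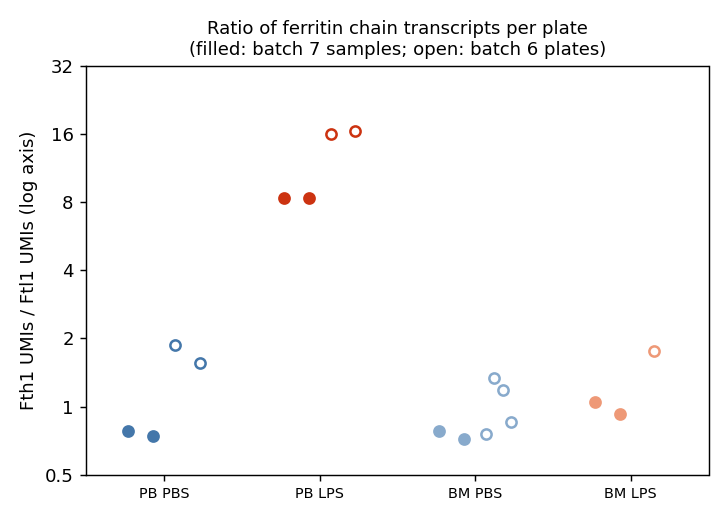
Ratio of Fth1 to Ftl1 UMIs per plate (log axis) in the 4 groups. Filled points are the batch 7 samples and open points the batch 6 plates. LPS-primed PB plates lie at 8.34 to 16.4 and all others at 0.717 to 1.88.

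Of the other iron genes, the iron exporter ferroportin (Slc40a1) was at 698 and 694 CPM in PBS-primed PB and 205 and 232 CPM in LPS-primed PB samples. In BM it was 122 and 196 CPM after PBS and 224 and 169 CPM after LPS. The log2 fold change of Slc40a1 after LPS in PB was -0.75 (SE 0.34) with TMM and missed the threshold (edgeR adjusted p = 0.295). In batch 6 Slc40a1 was at 927 and 1062 CPM after PBS and 28.3 and 55.4 CPM after LPS in PB. The BM plates of that batch were at 266 to 529 CPM after PBS and 168 CPM after LPS. Heme oxygenase 1 (Hmox1), which frees iron from heme, lay between 40.1 and 121 CPM in all 8 samples, with overlapping groups. In the 8 samples the transferrin receptor (Tfrc) stayed at 16.7 CPM or less and the ferritinophagy receptor Ncoa4 at 24.7 CPM or less. In batch 6 Tfrc reached 18.2 CPM. Ncoa4 was there at 10.7 to 64.6 CPM in PBS-primed BM and at 14.2 CPM or less in the other groups.

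Prdx5 was low in one place, the PBS-primed PB neutrophils. They held 1186 and 1131 CPM, against 2539 and 2610 CPM after LPS in PB, 2006 and 2210 CPM in PBS-primed BM and 1963 and 1977 CPM in LPS-primed BM samples. Batch 6 had the same order, with 623 and 958 CPM in PBS-primed PB, 3293 and 2884 CPM after LPS in PB, 2071 to 2673 CPM in PBS-primed BM and 1677 CPM in LPS-primed BM. The log2 fold change of LPS against PBS was 2.07 (SE 0.18) in PB with TMM and 1.148 with library size alone, and in BM it was -0.29 (SE 0.17) and -0.10. PBS-primed PB against PBS-primed BM gave -1.38 (SE 0.18) with TMM and -0.86 with library size alone.

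The sum of early neutrophil markers, which rests mostly on Camp, Ltf, Ngp and Chil3, was like Prdx5 lowest on PBS-primed PB plates, and by far. The order of the other groups differed. The marker sum was higher on BM than on LPS-primed PB plates, whereas within each batch Prdx5 was highest in LPS-primed PB. Of the LPS-primed PB cells, 22 of 91 and 8 of 86 held under 1000 CPM of those markers, and in these cells Prdx5 was at 1855 and 1875 CPM. The matching cells of PBS-primed PB samples, 86 of 90 and 81 of 86, held 1194 and 1107 CPM. Fth1 was at 25302 and 46295 CPM in the same LPS-primed cells and at 7700 and 8371 CPM in the same PBS-primed cells. The ratio of Fth1 to Ftl1 was 3.74 and 7.82 in these LPS-primed cells and 0.778 and 0.731 in these PBS-primed cells. All LPS-primed PB cells of batch 6 held 1000 CPM or more, so the comparison could not be made there, and the part of the early markers in the Prdx5 levels was not otherwise tested.

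Among the other peroxiredoxins, Prdx6 was the next in level, at 80.0 to 346 CPM over the 8 samples. Prdx1 was at 0.143 to 90.4 CPM, Prdx2 at 0.430 to 19.9 CPM, Prdx3 at 0 to 22.5 CPM and Prdx4 at 0 to 1.39 CPM. UMI counts near the 3′ end need no correction for length, but copies that share reads can lower them. Prdx4 was too low to be tested, and none of the other 4 passed the threshold in any comparison.

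Txn1 was the flattest of the abundant members, and its direction in CPM after LPS in PB differed between the batches. By CPM it was 1848 and 1781 in PBS-primed PB, 1956 and 2127 in LPS-primed PB, 1694 and 1484 in PBS-primed BM and 1280 and 1363 in LPS-primed BM samples. In batch 6 it was higher in PBS-primed PB, at 2195 and 2630 CPM, than in LPS-primed PB, at 1698 and 1099 CPM, and was at 1040 to 1843 CPM in PBS-primed and 1276 CPM in LPS-primed BM. The log2 fold change in PB was 1.09 (SE 0.19) with TMM but 0.17 with library size alone. It was 0.80 with TMM once the pooled sums of batch 6 were added with batch as a term, and batch 6 was not fitted alone. Between PBS-primed PB and BM neutrophils it was -0.33 (SE 0.18) with TMM and 0.20 with library size alone, so the sign followed the scaling. In BM the log2 fold change after LPS was -0.45 (SE 0.18) with TMM and -0.27 with library size alone.

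Set against each other within a plate, Prdx5 and Txn1 parted in PBS-primed PB neutrophils. The ratio of Prdx5 to Txn1 UMIs was 0.642 and 0.635 there, 1.30 and 1.23 in LPS-primed PB, 1.18 and 1.49 in PBS-primed BM and 1.53 and 1.45 in LPS-primed BM samples. In batch 6 it was 0.284 and 0.364 in PBS-primed PB and 1.13 to 2.62 on the other 7 plates. The PBS-primed PB plates were the lowest of both batches. Among batch 7 cells with under 1000 CPM of early neutrophil markers the gap was smaller, with ratios of 0.635 and 0.627 in PBS-primed PB and of 0.781 and 0.616 in the 22 and 8 such cells of the LPS-primed PB samples, so there the groups overlapped.

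Of the partners of Txn1, Txnip alone reached a similar level. Thioredoxin reductase 1 (Txnrd1) was at 7.14 and 13.9 CPM in PBS-primed PB, 39.4 and 84.4 CPM after LPS in PB and 36.7 to 51.7 CPM in BM samples. Batch 6 did not share that difference in PB, with 45.2 and 14.3 CPM after PBS and 11.98 and 10.6 CPM after LPS, and its BM plates ranged from 3.38 to 47.6 CPM. The thioredoxin inhibitor Txnip was at 1833 and 1264 CPM in PBS-primed PB, 1160 and 990 CPM after LPS in PB, 757 and 543 CPM in PBS-primed BM and 314 and 122 CPM in LPS-primed BM samples. In PB its CPM values were lower after LPS while its log2 fold change with TMM was 0.38 (SE 0.38), so the sign followed the scaling. Sulfiredoxin (Srxn1), which repairs overoxidised peroxiredoxins, was at 0.510 CPM or less in all 8 samples. In batch 6 it was at 55.9 and 9.57 CPM in PBS-primed PB, at 0 and 0 CPM in LPS-primed PB and at 3.72 CPM or less in BM. Srxn1 was too low in batch 7 to be tested, and neither Txnrd1 nor Txnip passed the threshold in any comparison.

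Gclc was close to absent and rested on single cells. The samples held 89 and 1 Gclc UMIs in PBS-primed PB, 13 and 11 in LPS-primed PB, 51 and 15 in PBS-primed BM and 0 and 0 in LPS-primed BM, that is, 17.7, 0.309, 2.03, 1.87, 7.31, 1.79, 0 and 0 CPM. In PBS-primed PB sample 1 a single cell gave 83 of the 89 UMIs, and in PBS-primed BM sample 1 a single cell gave 50 of the 51. In batch 6 a single cell gave 210 of the 214 UMIs of 1 LPS-primed PB plate while the other such plate had 0. No order of the groups is read from so few cells, and the 0 counts of the LPS-primed BM samples allow up to 0.387 and 0.365 CPM, counting error only. Gclc UMIs were spread over 13 and 9 cells in LPS-primed and 6 and 1 cells in PBS-primed PB samples of batch 7. With every cell thinned to 5000 UMIs, these were 1 and 1 cells after LPS and 1 and 0 cells after PBS. The PB plates of batch 6 overlapped without thinning. There 0 of 95 and 5 of 91 cells held a Gclc UMI after LPS, and 4 of 88 and 3 of 84 after PBS.

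The rest of glutathione synthesis was low as well. The modifier subunit Gclm was at 50.4 and 18.2 CPM in PBS-primed PB neutrophils, at 26.4 and 4.59 CPM after LPS in PB, at 40.9 and 40.9 CPM in PBS-primed BM and at 92.8 and 89.7 CPM after LPS in BM. Over the 8 samples glutathione synthetase (Gss) was at 0 to 19.6 CPM and the cystine carrier Slc7a11 at 46.6 to 132 CPM. On the batch 6 plates Gss was at 0 to 38.9 CPM and Slc7a11 at 10.8 to 83.7 CPM. Glutathione reductase (Gsr), which regenerates reduced glutathione, was by contrast abundant, at 2011 and 2241 CPM in PBS-primed PB, 1467 and 1361 CPM after LPS in PB, 1568 and 1222 CPM in PBS-primed BM and 1892 and 1327 CPM in LPS-primed BM samples. For Gsr too the CPM values in PB were lower after LPS while the log2 fold change with TMM was 0.33 (SE 0.22). None of these 4 passed the threshold in any comparison.

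Sod2 in the same samples was 20.2 and 49.1 CPM in PBS-primed PB, 1013 and 1133 CPM after LPS in PB, 1.43 and 20.9 CPM in PBS-primed BM and 9.02 and 33.2 CPM in LPS-primed BM. Its log2 fold change after LPS was 5.88 (SE 1.08) in PB and 0.71 (SE 0.90) in BM with TMM. The BM value has no stable sign, being 3.71 without PBS-primed BM sample 2, -0.20 without PBS-primed BM sample 1 and -0.53 without LPS-primed BM sample 2. A single cell gave 157 of the 175 Sod2 UMIs of PBS-primed BM sample 2, and without the 2 highest cells of each sample Sod2 was at 1.95 CPM there and at 6.26 CPM in LPS-primed BM sample 2. Fth1 therefore shared the group of highest level with Sod2 but, unlike it, was present in every cell of every plate. Cytosolic superoxide dismutase (Sod1) stayed at 4.02 to 89.2 CPM and catalase (Cat) at 0.386 to 43.5 CPM in the 8 samples. Of the regulators, Nfe2l2, which encodes the transcription factor Nrf2, was at 167 to 476 CPM in the same samples and its repressor Keap1 at 10.4 to 114 CPM.

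Within plates, the rise of Fth1 was broad but uneven. The median cell held 7556 and 7086 CPM after PBS in PB and 23093 and 20682 CPM after LPS, where the 10th to 90th percentile ran from 8706 to 72977 CPM and from 6705 to 66504 CPM. In batch 6 the median LPS-primed PB cell held 45184 and 38422 CPM and the 10th percentile was 25995 and 18912 CPM. The lower tail of the LPS-primed PB cells was thus longer in batch 7. The level exceeded by 10% of PBS-primed PB cells, 14440 CPM in batch 7, was passed by 63 of 91 (69.2%, exact 95% interval 58.7 to 78.5) and 56 of 86 (65.1%, 54.1 to 75.1) LPS-primed PB cells. In batch 6 that level was 16217 CPM and was passed by 92 of 95 (96.8%, 91.0 to 99.3) and 87 of 91 (95.6%, 89.1 to 98.8) cells. These intervals cover counting error only.

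Prdx5 and Txn1 were less uniform from cell to cell. The median Prdx5 level was 504 and 449 CPM in PBS-primed PB, 1875 and 1471 CPM after LPS in PB, 933 and 1407 CPM in PBS-primed BM and 1795 and 1792 CPM in LPS-primed BM samples. The level exceeded by 10% of PBS-primed PB cells was passed for Prdx5 by 29 of 91 and 32 of 86 LPS-primed PB cells in batch 7 and by 74 of 95 and 52 of 91 in batch 6. For Txn1 it was passed by 9 of 91 and 9 of 86 cells in batch 7 and by 1 of 95 and 0 of 91 in batch 6. The median Txn1 level of a cell was 1539 and 1319 CPM in PBS-primed PB, 1807 and 1686 CPM after LPS in PB, 583 and 1109 CPM in PBS-primed BM and 1073 and 1224 CPM in LPS-primed BM samples.

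**Figure D3:**
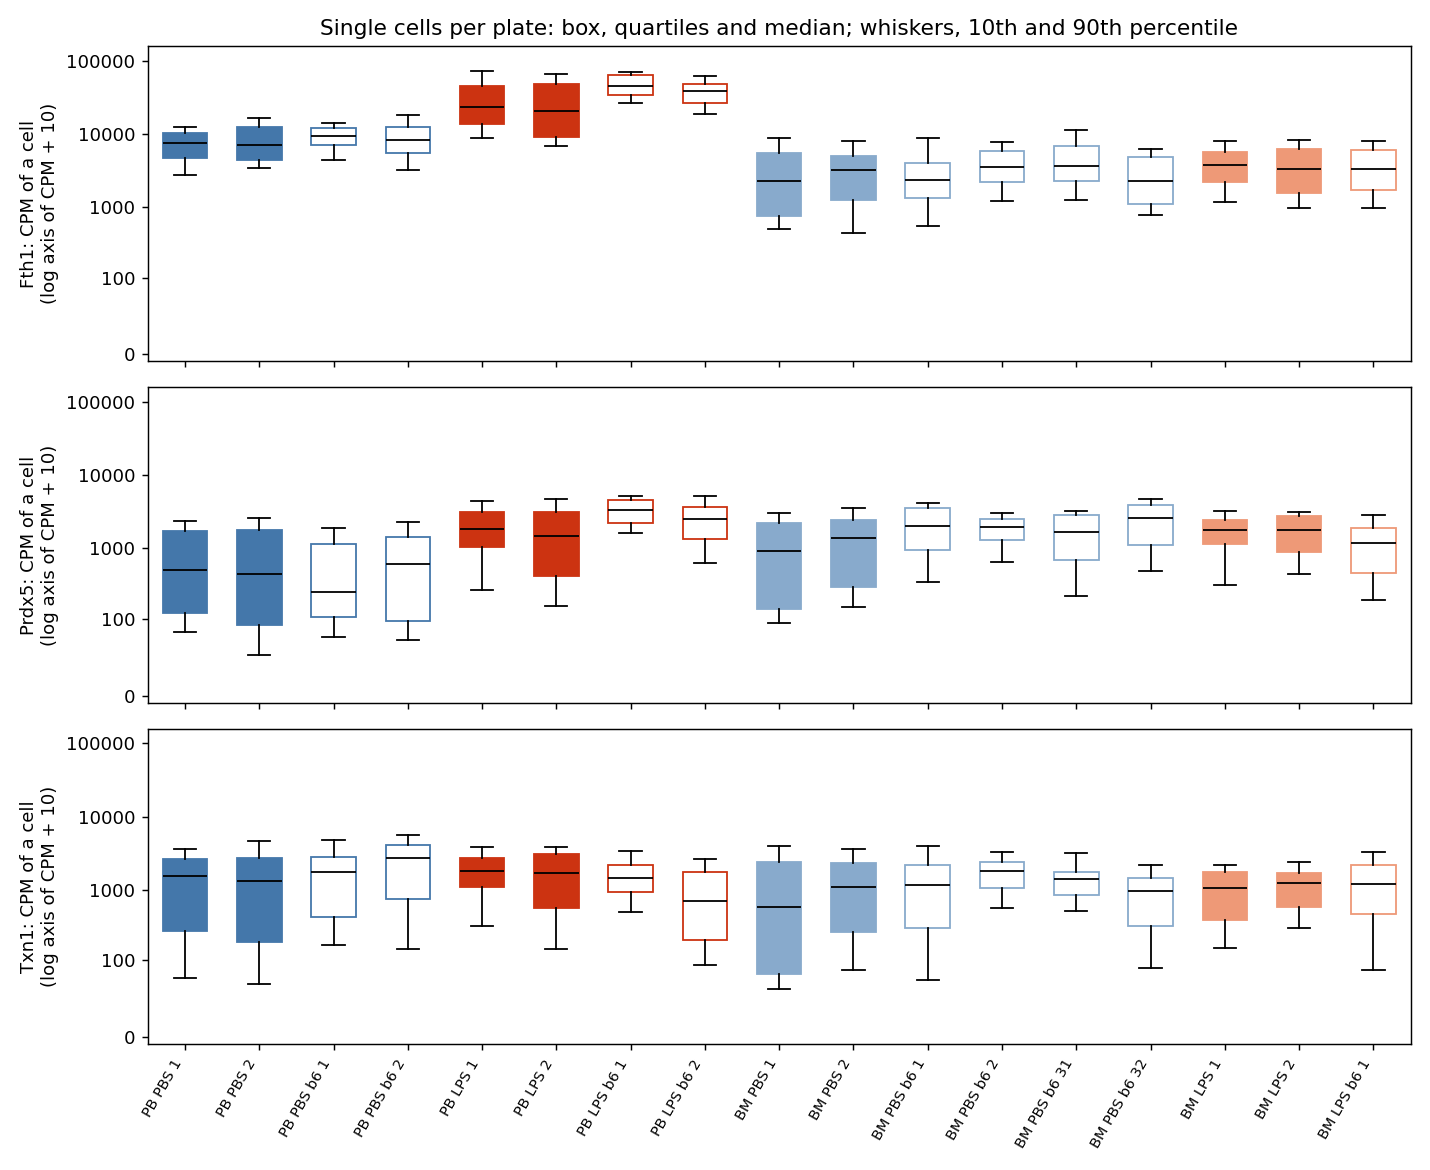
CPM of single cells on each plate (log axes of CPM + 10) for Fth1, Prdx5 and Txn1, ordered by group with batch 7 samples filled and batch 6 plates (b6) open. Boxes give the quartiles and the median and whiskers the 10th and 90th percentile. The Fth1 medians of LPS-primed PB cells, 20682 to 45184 CPM, lie above all others, the lower whiskers reach further down in batch 7, and the Txn1 boxes overlap.

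Over the cells of the LPS-primed PB samples of batch 7, Fth1 rose and fell with Sod2. Spearman's rho of the CPM values was 0.54 (n = 91 cells) and 0.51 (n = 86 cells), and with every cell thinned to 5000 UMIs it was 0.53 and 0.48. Cells above the Sod2 median of their sample had a median Fth1 of 40767 and 38551 CPM, and the rest 14484 and 14972 CPM. In batch 6 the same rho was -0.02 (n = 95 cells) and -0.06 (n = 91 cells), and the medians were 45184 against 48248 CPM and 38482 against 38292 CPM. The relation was thus seen in 1 batch and not in the other.

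Prdx5 behaved likewise, with a rho to Sod2 of 0.52 and 0.44 in batch 7 and 0.11 and -0.08 in batch 6. Its medians above and below the Sod2 median were 2477 against 1211 CPM and 2640 against 750 CPM in batch 7, and 3514 against 3146 CPM and 2406 against 2777 CPM in batch 6. Txn1 had a rho to Sod2 between -0.03 and 0.09 on all 4 plates. Fth1 and Prdx5 had a rho to each other of 0.51 and 0.32 in batch 7 and 0.14 and 0.11 in batch 6. Cells of a plate share its library, so these coefficients are descriptions and carry no test.

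**Figure D4:**
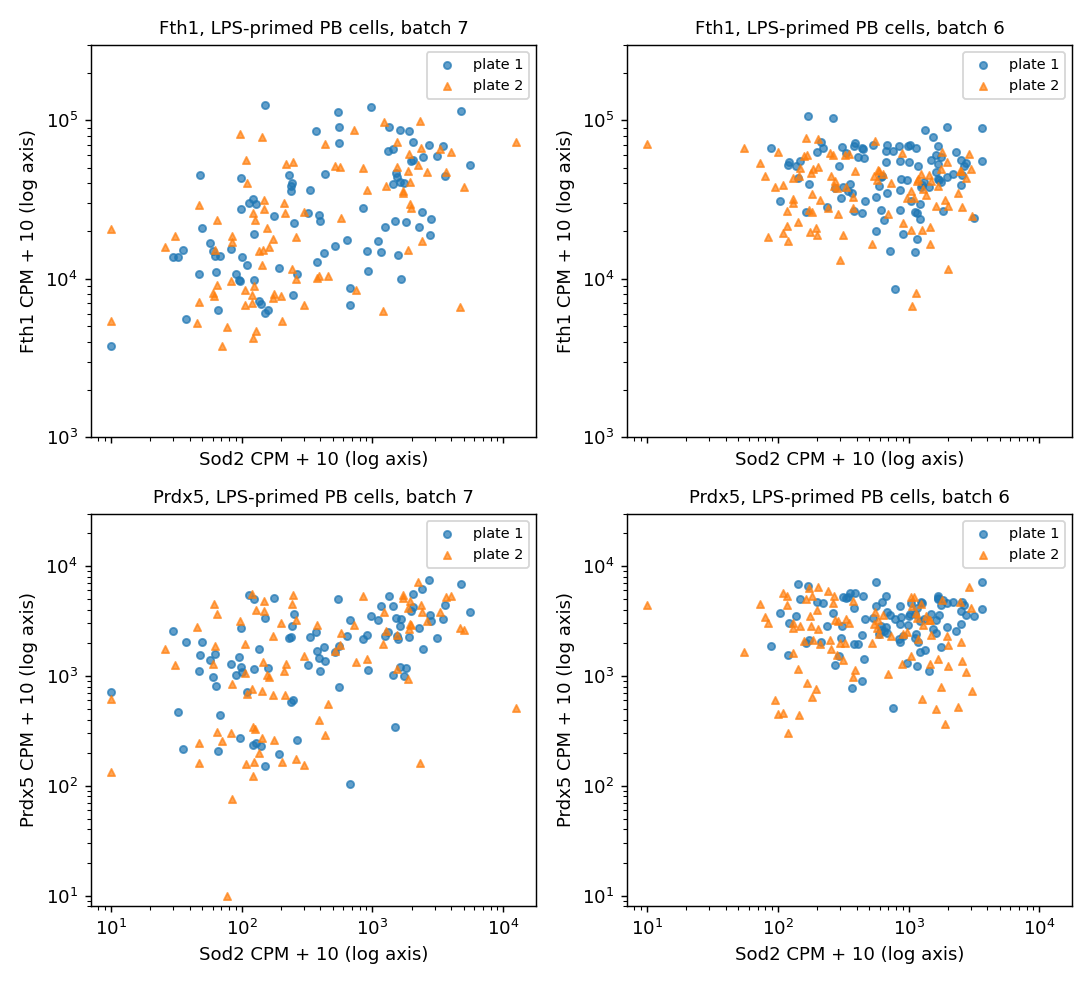
CPM + 10 of Fth1 (top) and Prdx5 (bottom) against CPM + 10 of Sod2 in single LPS-primed PB cells, batch 7 left and batch 6 right, both axes logarithmic and symbols marking the plate. In batch 7 cells low in Sod2 extend to low Fth1 and low Prdx5, with rho of 0.54 and 0.51 for Fth1, and in batch 6 few cells are low in Fth1 and rho is -0.02 and -0.06.

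Across all genes, edgeR's quasi-likelihood test on UMIs summed per sample called 333 of 8590 tested genes between LPS- and PBS-primed PB neutrophils (3.88% at an adjusted p under 0.05, with 3.41% higher and 0.466% lower). Of the 4 members 3 were among them, Fth1, Prdx5 and Txn1, all higher, which their choice already implied, and all 4 had passed the filter on low counts. Txn1 was not called with library size alone or without either PBS-primed PB sample. In BM the test called 6 genes (0.0698%, with 0.0233% higher and 0.0466% lower) and no member, with 679 genes at an unadjusted p under 0.05 and 193 calls by DESeq2. Between PBS-primed PB and BM neutrophils it called 221 genes (2.57%, with 1.16% higher and 1.41% lower), with Fth1 (higher) and Prdx5 (lower) among them. The difference of the LPS effects, PB minus BM, was called for 127 genes (1.48%, with 1.43% higher and 0.0466% lower), with Fth1 at 3.12 (SE 0.19), Prdx5 at 2.35 (SE 0.25) and Txn1 at 1.54 (SE 0.26) on the log2 scale among them, and with library size alone these were 2.02, 1.25 and 0.43. Fth1 was not called between PBS-primed PB and BM without either PBS-primed PB sample, nor Txn1 for the difference with library size alone or without any one of the PBS-primed PB and LPS-primed BM samples. For Sod2 the same difference was 5.17 (SE 1.32) and was not called, and it was 2.18 without PBS-primed BM sample 2.

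The other genes of these pathways were taken from lists of the thioredoxin system, peroxiredoxins, glutathione system, iron storage and transport, superoxide and catalase, and the Nrf2 axis, 77 of 85 of them in the table and 65 tested. After LPS in PB, 3 rose and 0 fell past the threshold (4.62% of the list against 3.88% of all genes), with a median log2 fold change of 0.0016 for the list and -0.12 for all genes. Glutaredoxin (Glrx), which reduces glutathionylated proteins, rose from 185 and 217 to 832 and 915 CPM (log2 fold change 3.04, SE 0.28, edgeR adjusted p = 0.000107). The microsomal glutathione transferase Mgst1 rose from 522 and 548 to 870 and 870 CPM (1.62, SE 0.23, edgeR adjusted p = 0.00191), a call lost with library size alone, where its log2 fold change was 0.70, and on the batch 6 plates it overlapped, at 219 and 691 CPM after PBS and 647 and 428 CPM after LPS. Mafg, a small Maf partner of Nrf2, rose from 32.1 and 21.3 to 115 and 92.3 CPM (2.86, SE 0.54, edgeR adjusted p = 0.0125), a call lost with library size alone and without either PBS-primed PB sample (adjusted p = 0.0711, 0.0580 and 0.115). With library size alone 1 gene of the list rose and 3 fell, so the direction of the list's calls followed the scaling.

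In BM no gene of the list (0 of 65, against 0.0698% of all genes) passed the threshold after LPS by edgeR (median log2 fold change -0.0071 for the list and 0.0035 for all genes), with 10 at an unadjusted p under 0.05 and 5 calls by DESeq2.

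Between PBS-primed PB and BM neutrophils 3 genes of the list were higher and 2 lower (7.69% of the list against 2.57% of all genes). All 3 that were higher belong to iron handling. The ferrireductase Steap4 was at 167 and 156 CPM in PB and 0 and 0.598 CPM in BM (edgeR adjusted p = 0.00400), where a fold is not given because it rests on so few UMIs. Slc40a1 had a log2 fold change of 1.61 (SE 0.35, edgeR adjusted p = 0.0329) and Ftl1 of 0.66 (SE 0.14, edgeR adjusted p = 0.0325), and both calls were lost with batch 6 added (adjusted p = 0.133 and 0.0575) and without either PBS-primed PB sample. They were also lost without PBS-primed BM sample 1 for Slc40a1 (adjusted p = 0.168) and sample 2 for Ftl1 (adjusted p = 0.0957). Glrx was lower in PB by a log2 fold change of -2.46 (SE 0.28, edgeR adjusted p = 0.000797) and Mgst1 by -1.79 (SE 0.23, edgeR adjusted p = 0.00178), so that in batch 7 both, like Prdx5, were lowest in PBS-primed PB neutrophils.

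**Figure D5:**
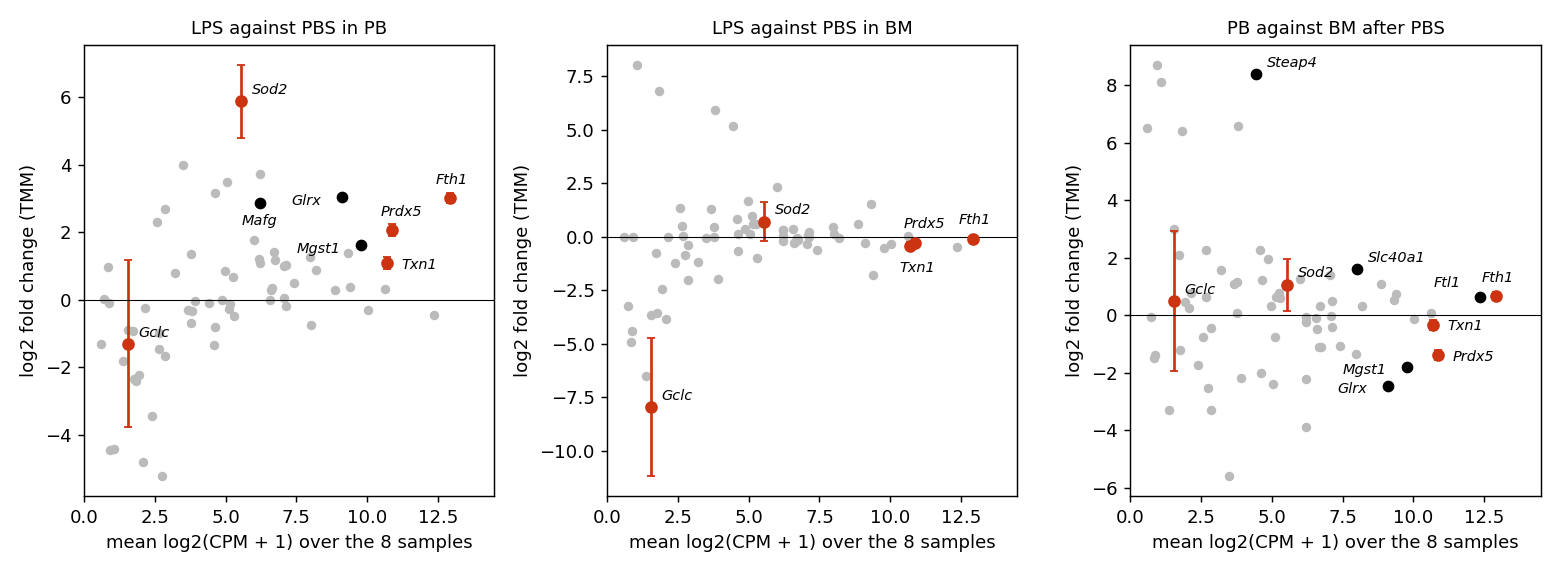
Log2 fold change with TMM scaling against the mean log2(CPM + 1) over the 8 samples for 65 pathway genes, in 3 comparisons. Red points are the members and Sod2 with their standard errors, black points list genes past the threshold (edgeR adjusted p under 0.05) and grey points the rest. Fth1 has the highest mean level shown, and 3, 0 and 5 list genes pass in the 3 comparisons.

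The genes whose levels over the 8 samples were most like those of each member differed between the members. Likeness was Pearson's r of log2(CPM + 1) among 2304 genes with a mean of at least 50 CPM, given as a description since the samples fall into 4 groups. Nearest to Fth1 were the interferon-inducible Trim34a (0.988) and the chemokines Cxcl10 (0.987) and Ccl4 (0.985), and with the pooled values of batch 6 added they were at 0.843, 0.966 and 0.939. Nearest to Prdx5 were the granule gene Lcn2 (0.983), Glrx (0.968) and Wfdc21 (0.967), and with batch 6 they were at 0.911, 0.815 and 0.936. Nearest to Sod2 were Ifit1 (0.990), Ifit3b (0.975) and Usp18 (0.969), all interferon-inducible, at 0.958, 0.955 and 0.919 with batch 6. For Txn1 the nearest were Hcar2 (0.964), Irf5 (0.959) and Pttg1 (0.950), which fell to 0.734, 0.618 and 0.716 with batch 6, and for Gclc, whose level rests on single cells, C5ar1 (0.896), Tmbim4 (0.858) and Rps27a (0.817) fell to 0.562, 0.538 and 0.221.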

How the data were processed

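UMI counts of 1421 cells were taken as deposited, and the authors made them by trimming with cutadapt 1.15, aligning to mm9 with STAR 2.6.0a, removing UMI duplicates and counting uniquely mapped reads with HTSeq 0.11.2. The gene annotation and the strand setting are not given in the sources used here. The ERCC ratio in the deposited cell annotation by the authors is a fraction whose denominator is not given. Columns of the authors' clusters and embeddings were not used. The members and the gene lists were chosen with earlier results of these data known.

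UMIs were summed per labelled sample of batch 7 and tested with edgeR 4.0.16 in R 4.3.3 (filterByExpr, TMM, quasi-likelihood test, all 8 samples in one model, two-sided, Benjamini-Hochberg over 8590 genes at 0.05), after a check on simulated counts. CPM is UMIs scaled to a plate total of 1000000. The study tests single cells as replicates, which was not followed. Alternatives were DESeq2 1.42.0, library size alone, no low-count filter, a replicate block, cells thinned to 5000 UMIs, batch 6 sums with batch as a term and each sample left out. Leaving out cells by marker level (500 and 1000 CPM) was added after seeing the data. Doublets were not called, since cells were picked singly. Same-numbered samples did not deviate together, so the main test did not pair them, though what a replicate number stands for is not stated. Genes named were the members, Sod2, a fixed set of partners, list genes that passed and reached 50 CPM in the higher group (at most 8 per comparison) and the 3 genes most like each member. Promoter letters are RefSeq, and 3 of 4 members have an entry. Figures used matplotlib 3.10.9.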

Additional observations from a re-analysis of the deposited data

Results flagged for a closer look

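The LPS effect differed between PB and BM neutrophils for 2 of the 65 tested genes of the pathway lists (3.08%, against 1.48% of all genes), by the test of the difference itself in edgeR. Glrx had a difference of 3.32 on the log2 scale (SE 0.38, edgeR adjusted p = 0.00101), with 185 and 217 CPM in PBS-primed PB, 832 and 915 CPM after LPS in PB, 640 and 897 CPM in PBS-primed BM and 671 and 768 CPM in LPS-primed BM samples. Mgst1 had a difference of 2.12 (SE 0.31, edgeR adjusted p = 0.00520), with 522 and 548, 870 and 870, 1484 and 1097, and 1002 and 1065 CPM in the same groups, and with library size alone the difference was 1.02 and missed the threshold (adjusted p = 0.166). On the batch 6 plates, which were not tested one by one, Mgst1 was at 219 and 691 CPM in PBS-primed and 647 and 428 CPM in LPS-primed PB. Summed early neutrophil markers were likewise lowest in PBS-primed PB neutrophils, and their part in these differences was not tested.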

How the results depend on the processing

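With DESeq2 the calls over all genes were 1059 for LPS against PBS in PB, 193 in BM, 973 for PB against BM after PBS and 497 for the difference of the LPS effects, and over the pathway lists 9, 5, 12 and 7. With batch 6 added they were 650, 27, 416 and 204 over all genes and 5, 2 and 4 over the lists for PB, BM and the difference. Cells thinned to 5000 UMIs gave 27 calls over all genes in BM and 6 over the lists in PB, and the table without a low-count filter gave 15 over all genes in BM. Library size alone gave 63 calls for the difference, and it turned the split of higher against lower calls from 293 and 40 to 140 and 261 in PB, from 2 and 4 to 5 and 3 in BM, from 100 and 121 to 211 and 84 for PB against BM, and from 123 and 4 to 45 and 18 for the difference. Leaving out each sample in turn gave 153 to 413, 3 to 37, 112 to 402 and 81 to 203 calls over all genes, and 2 to 6, 0 to 2, 3 to 10 and 2 to 4 over the lists. The replicate block gave 15 calls over all genes in BM and, over the lists, 5 in PB and 1 in BM. The deviations of same-numbered samples correlated at -0.016 to 0.015, which does not settle whether such samples share a source. The causes of these shifts were not tested.

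The log2 fold changes of Fth1, Prdx5, Txn1 and Sod2 that edgeR had called kept their sign under every alternative run on them. Sod2 was not called in PB without either PBS-primed PB sample (adjusted p = 0.1335 and 0.0975). Over the lists, library size alone turned the split of calls from 3 and 0 to 1 and 3 in PB, from 3 and 2 to 5 and 2 for PB against BM and from 2 and 0 to 1 and 1 for the difference. Leaving out cells by their markers was chosen after seeing the data. With a sample left out its group has 1, and the spread then comes from the remaining groups. Groups of 2 samples and a common dispersion of 1.07 limit what can be called among genes with few UMIs.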
